A study of Mus musculus with 8 samples.

Results

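The genes for the proteins of the cytosolic ribosome were followed in the pituitary of mice, in its neuro-intermediate lobe (IL), whose main cells, the melanotropes, make the hormone precursor POMC. Genes were chosen by symbol alone, as Rpl or Rps with a number (and a trailing a or x where present), Rplp0, Rplp1, Rplp2 and Rpsa, without pseudogenes. The rule took 76 genes out of 48526 in the count table, 46 for the large (60S) subunit and 30 for the small (40S) subunit, and used no measured value. The symbol Rps3a1, the mouse gene for the small subunit protein RPS3A, lies outside the rule and was handled with the paralogues.

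RNA was sequenced from 8 libraries in 4 groups of 2, and each library was made from a pool of 5 lobes of C57B6 mice, male and 3 months old per the study's methods. WT mice carried no transgene. ACreb3l2 and AXBP1 mice carried the cDNA of an acidic dominant negative protein, which binds its partner factor (Creb3l2 or XBP1) and keeps it from DNA, and ACreb3l2/AXBP1 mice carried both. Each transgene was driven by the rat POMC promoter and is thus limited to POMC cells, whereas the libraries hold RNA of all cells of the lobe. The question behind the comparisons was which transcripts need either factor, or both, in these cells.

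A ribosome is built from ribosomal RNA and a fixed set of proteins, most of which are present as 1 copy per particle. Their mRNAs are among the most abundant of a cell and mostly begin with a run of pyrimidines at the cap, the 5′ terminal oligopyrimidine (TOP) motif, through which the mTOR pathway controls their translation. Secretory cells such as melanotropes need ribosomes in number, since their product is made at the endoplasmic reticulum.

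Total counts ran from 28256086 to 37988912 per library. Pomc held between 6.91% and 14.6% of the counts of a library, and all 10 melanotrope markers were detected. In ACreb3l2/AXBP1 all 10 were lower than in WT, with a median log2 change of -0.30 and only Tbx19 called, and their summed level was 2317828 and 3173089 normalized counts against 3839936 and 5676799 in WT. In the same group 10 of 10 pituicyte and astroglia markers, 8 of 8 endothelial markers and 7 of 8 fibroblast and pericyte markers were higher than in WT, with median log2 changes of 0.36, 0.56 and 0.31 and none called. In AXBP1 8 of 8 endothelial and 8 of 8 fibroblast and pericyte markers were higher (medians 0.42 and 0.31), and 7 of 8 anterior lobe markers were lower (median -0.61), with summed levels of 80237 and 84222 normalized counts against 155519 and 230702 in WT. In ACreb3l2 9 of 10 pituicyte and astroglia and 5 of 5 erythroid markers were higher (medians 0.29 and 0.45), as were 7 of 8 macrophage and microglia markers (median 0.14). All 5 erythroid markers were lower in AXBP1 and in ACreb3l2/AXBP1 (medians -0.19 and -0.24). Melanotrope markers were lower for 8 of 10 in ACreb3l2 and 7 of 10 in AXBP1 (medians -0.16 and -0.12), and pituicyte and astroglia markers were higher for 8 of 10 in AXBP1 (median 0.25). None of the markers was called in either single group. The part of cell composition in the results below was not tested. Creb3l2 measured 28642 and 28156 normalized counts for WT, 27174 and 26738 for ACreb3l2, 18810 and 22801 for AXBP1 and 21176 and 14024 for ACreb3l2/AXBP1. Xbp1 measured 11860 and 13417 for WT, 9142 and 9192 for ACreb3l2, 12431 and 13831 for AXBP1 and 17615 and 12837 for ACreb3l2/AXBP1. Neither gene was called higher where its dominant negative was carried, and Creb3l2 was called lower in ACreb3l2/AXBP1 (-0.69, edgeR adjusted p = 0.0428). These counts do not check the labels, by which the groups are named.

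Promoter windows were examined because both factors act by binding DNA. RefSeq windows (GRCm38.p6, 250 bases before to 50 after an annotated start) were found for 56 of the 76 genes, 66 windows in all. A run of at least 8 pyrimidines (C or T, on the strand that reads as the mRNA) reaching within 10 bases of the start was sought. It was found in 42.4% of these windows and in 14% of all 32851 windows. The sequence ACGT, the core that factors of the Creb3l2 and XBP1 kind recognise and which reads the same on both strands, lay in 57.6% of the windows of ribosomal protein genes and in 30.9% of all windows. Its longer form TGACGT, on either strand, lay in 19.7% and 7.51%. The following stretches show the pyrimidine run at the start in capitals for the stalk gene Rplp2 and for Rpl38 and Rps18, which are described below.
Rplp2: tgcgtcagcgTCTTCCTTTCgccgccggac
Rpl38: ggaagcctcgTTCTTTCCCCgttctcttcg
Rps18: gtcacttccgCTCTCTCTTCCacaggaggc
These lie at chr7:141447636-141447665 (plus strand), chr11:114668568-114668597 (plus strand) and chr17:33955648-33955677 (minus strand). The next stretches show ACGT in capitals, for Rplp0 and Rpl12, which were called lower, for Rps18, and for Rpl26, which was highest in every comparison with WT.
Rplp0: ataggcatggacgACGTcgtcttcgggttt
Rpl12: aagggaACGTggaccaggaaccaggacctc
Rps18: atataagacttatACGTcacttccgctctc
Rpl26: cctccgagggatgACGTcaggacccctcgc
They lie at chr5:115559434-115559463 (plus strand), chr2:32961462-32961491 (plus strand), chr17:33955663-33955692 (minus strand) and chr11:68901421-68901450 (plus strand). The ACGT of Rplp0 starts 20 bases before the annotated start, that of Rpl12 244 bases, that of Rps18 14 bases and that of Rpl26 132 bases before it. The Rps18 window holds a further ACGT, 235 bases before the start. A match of letters is a description and not a binding site.

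In WT, levels per length spread over a 26.6-fold range. FPKM are fragments scaled to transcript length and sequencing depth. The median of the 76 genes was 424 FPKM, against 8.09 FPKM for all genes tested below, and 57 of the 76 lay within 2-fold of that median. Rps21, a small 40S protein, stood first at 1722 ± 14.2 FPKM (SD, n = 2, as for all WT levels here), followed by Rpl13a at 1586 ± 92.4, the stalk protein Rplp1 at 1440 ± 2.32 and Rps27 at 1401 ± 20.2. Among these 4, neighbours in the order did not overlap between the WT libraries. At the low end stood Rpl5 (128 ± 0.803 FPKM), Rpl15 (97.8 ± 5.42 FPKM) and Rpl29 (64.7 ± 9.80 FPKM), each below the one before it in both libraries. Most of the encoded proteins are held in equal number in the ribosome, and the order is one of mRNA estimates only.

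**Figure D1:**
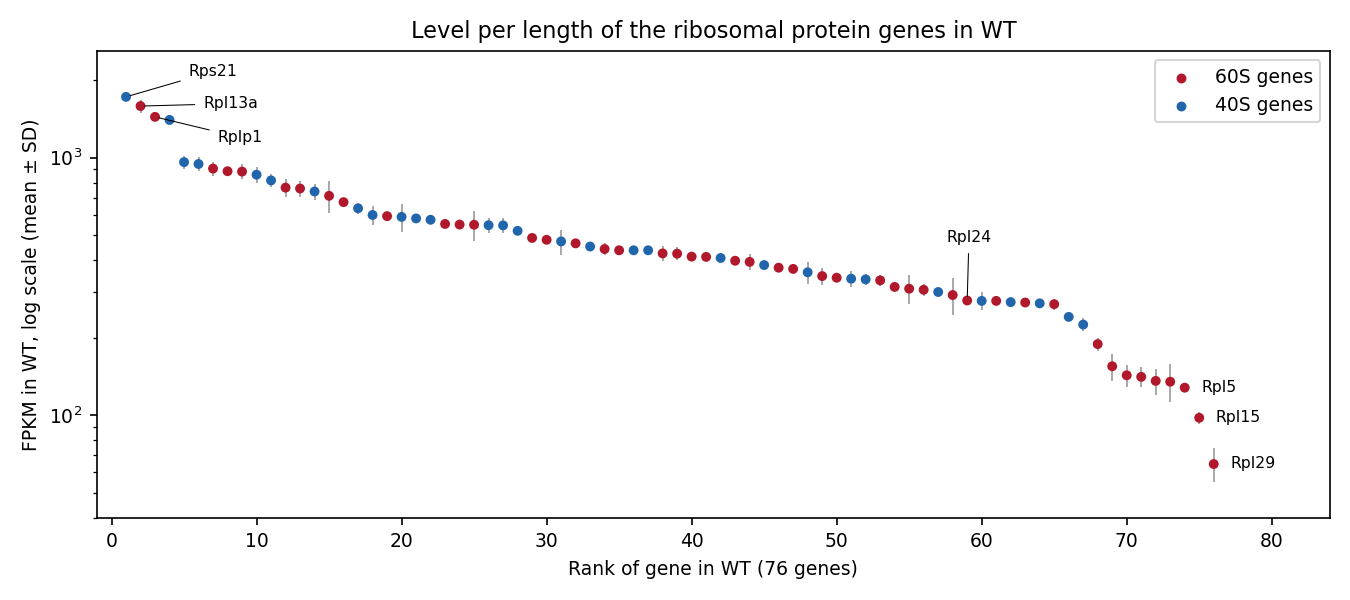
Level per length in WT (FPKM, log axis, mean ± SD of 2 libraries) of the 76 ribosomal protein genes, ranked. Rps21 stands first at 1722 FPKM and Rpl29 last at 64.7 FPKM, and 60S and 40S genes are mixed along the order.

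The count table and the FPKM table disagreed for a pair of 60S genes. Rpl24, an Ensembl gene (ENSMUSG00000098274) on chromosome 16, had 3 to 9 counts per library, a mean of 5.5, although its FPKM ran from 212 to 281. Of its exonic bases 47.0% lie in the read-through gene Gm28037 on the same strand, and reads that fit more than 1 gene are left out by the default of the counting tool that the authors named, whose part in the low count was not tested. Rpl13a likewise had a mean of 766 counts at 1475 FPKM, with 35.4% of its exonic bases shared with other genes of the same strand. Rpl24 was the only gene of the 76 that failed the filter of a mean normalized count above 20, which left 75 genes tested, and nothing about its change is given from counts.

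Most ribosomal protein genes had slightly lower values in each transgenic group than in WT, and few of these changes passed the test. Calls rest on an edgeR adjusted p under 0.05 over the 15580 genes tested. Fewer cells of a type and less RNA per cell cannot be told apart in such bulk libraries, and every level is relative to the other RNA of its library. In ACreb3l2 71 of 75 genes had a negative log2 change (48.2% of all genes tested), with a median of -0.12 against 0.01 for all genes. In AXBP1 65 of 75 were negative (49.7% of all genes), with a median of -0.08 against 0.00. In ACreb3l2/AXBP1 67 of 75 were negative (48.3% of all genes), with a median of -0.15 against 0.01. Medians of the 60S and 40S genes were close in each group, at -0.12 and -0.12 for ACreb3l2, -0.09 and -0.08 for AXBP1, and -0.16 and -0.14 for ACreb3l2/AXBP1. The summed 60S level was between 1.31 and 1.36 times the summed 40S level in every library.

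The median shift was of the size of the difference between the WT libraries. Relative to the WT mean, the median log2 level of the 75 genes was -0.060 in WT replicate 1 and 0.060 in WT replicate 2. Libraries of ACreb3l2 were at -0.112 and -0.132, those of AXBP1 at -0.103 and -0.064, and those of the double group at -0.109 and -0.168. All 6 transgenic libraries therefore lay below both WT libraries, AXBP1 replicate 2 by a margin of a few thousandths. Without WT replicate 2 the medians were -0.06, -0.02 and -0.07 in the order ACreb3l2, AXBP1 and ACreb3l2/AXBP1, and without WT replicate 1 they were -0.18, -0.15 and -0.22. ACreb3l2/AXBP1 replicate 2, the library with the lowest share of counts in Pomc (6.91%), also had the lowest median, and without it the median of its group was -0.12.

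**Figure D2:**
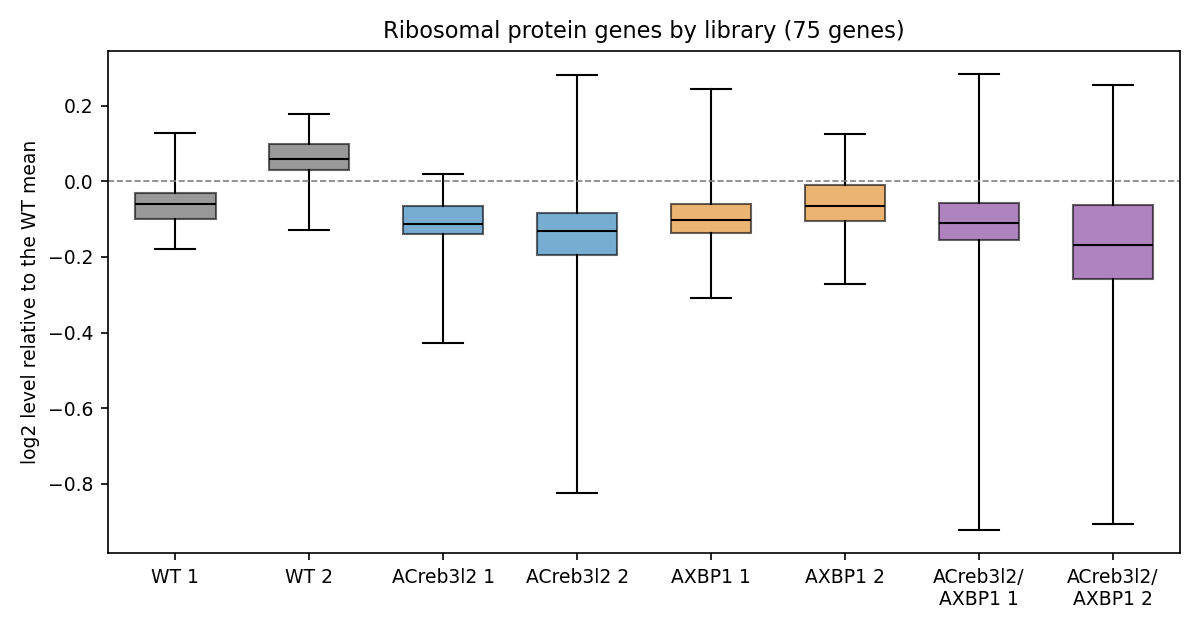
Log2 level of the 75 tested ribosomal protein genes relative to the WT mean (log2 CPM, vertical axis) in each library. Boxes span the quartiles, the line is the median and whiskers reach the lowest and highest gene. The WT medians are -0.060 and 0.060 and those of the transgenic libraries lie from -0.064 to -0.168.

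The shift depended on how libraries were scaled. With library size alone the medians were -0.04, -0.02 and 0.01 for ACreb3l2, AXBP1 and ACreb3l2/AXBP1, a change of sign in the last, while the median of all genes moved to 0.08, 0.06 and 0.17, so that ribosomal protein genes stayed below it each time. The share of all counts held by the 76 genes was 2.28% ± 0.0150 for WT, 2.19% ± 0.000373 for ACreb3l2, 2.26% ± 0.00818 for AXBP1 and 2.30% ± 0.0332 for ACreb3l2/AXBP1 (SD, n = 2 each). Both libraries of ACreb3l2 and both of AXBP1 lay below both WT libraries, whereas ACreb3l2/AXBP1 overlapped WT. With Pomc and the 10 genes of most counts taken out of the total, the share was 2.81% ± 0.152 in WT against 2.64% ± 0.0108, 2.73% ± 0.0202 and 2.68% ± 0.0295. As a share of FPKM instead, both ACreb3l2/AXBP1 libraries lay above both WT libraries and both ACreb3l2 libraries below them. The AXBP1 libraries lay on either side of WT. On log2(FPKM + 1) the medians were -0.09, -0.24 and -0.14 in the order ACreb3l2, AXBP1 and ACreb3l2/AXBP1, AXBP1 then being lowest, beside 0.02, -0.13 and -0.02 for all genes. An offset for gene length reduced the median in ACreb3l2/AXBP1 to -0.08.

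Counts of genes whose groups did not overlap leaned the same way. Both ACreb3l2 libraries lay below both WT libraries for 51 of 75 genes (23.2% of all genes tested) and above both for 1 (22.3%). For AXBP1 the counts were 29 below (23.8%) and 4 above (22.3%), and for ACreb3l2/AXBP1 49 below (28.7%) and 4 above (29.6%). These comparisons share the WT libraries.

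**Figure D3:**
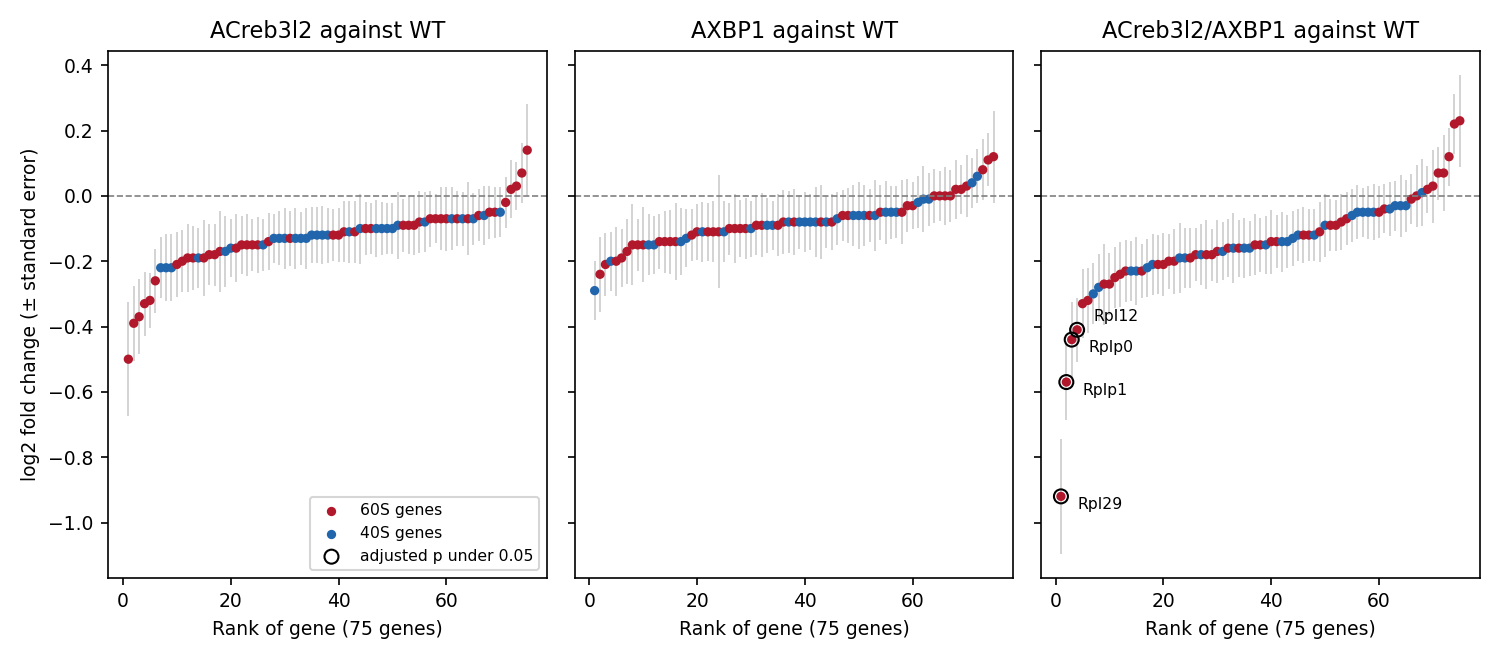
Log2 fold change against WT (vertical axis, ± standard error) of the 75 tested ribosomal protein genes in each transgenic group, ranked by change within a group. Open circles mark genes with an edgeR adjusted p under 0.05, which are Rpl29, Rplp1, Rplp0 and Rpl12 in ACreb3l2/AXBP1.

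In edgeR, ribosomal protein genes were called in 1 comparison, ACreb3l2/AXBP1 against WT. There 4 of 75 were called, all lower, which is 5.33% of the tested genes against 6.99% of all genes called lower (10.1% called in either direction), so the count is no higher than the background. At an unadjusted p under 0.05 there were 22 (29.7% of all genes), of which 21 were lower (16.3% of all genes). The 4 genes were Rpl29, Rplp1, Rplp0 and Rpl12, all of the 60S subunit. DESeq2 called 7, adding Rpl10a, Rpl41 and Rps19, all lower, where it called 9.55% of all genes lower. With library size alone 3 were called, Rpl29 and Rplp1 lower (3.50% of all genes) and Rpl30 higher (7.09%). No gene was called without WT replicate 2 (2.28% of all genes) or without ACreb3l2/AXBP1 replicate 2 (1.40%), and 8 were called without WT replicate 1 (12.9%). Leaving out AXBP1 replicate 1 or replicate 2 left 2 calls (5.40% and 5.31% of all genes).

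Rplp0 and Rplp1 belong to the stalk of the 60S subunit, the flexible arm that recruits and activates the translation GTPases. Rplp0 anchors the stalk on the ribosomal RNA and holds dimers of Rplp1 and Rplp2, and Rpl12 binds beside Rplp0 at the base. Rplp1 measured 19247 and 20076 normalized counts for WT, 16189 and 14336 for ACreb3l2, 17931 and 17407 for AXBP1 and 14739 and 11767 for ACreb3l2/AXBP1. All 6 transgenic libraries lay below both WT libraries, and ACreb3l2 and ACreb3l2/AXBP1 overlapped each other. Rplp1 fell by 32.6% in ACreb3l2/AXBP1 (log2 change -0.57, SE 0.116, edgeR adjusted p = 0.0170). The changes in ACreb3l2 (-0.37) and AXBP1 (-0.15) were not called (edgeR adjusted p = 0.139 and 0.638).

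Rplp0 measured 21498 and 26167 normalized counts for WT, 17635 and 18825 for ACreb3l2, 20715 and 19643 for AXBP1 and 18768 and 16337 for ACreb3l2/AXBP1. Again every transgenic library lay below both WT libraries, which themselves differed more than those of any other group. Rplp0 fell by 26.3% in ACreb3l2/AXBP1 (log2 change -0.44, SE 0.115, edgeR adjusted p = 0.0408). The single groups gave -0.39 (ACreb3l2, edgeR adjusted p = 0.119) and -0.24 (AXBP1, edgeR adjusted p = 0.516). The call in ACreb3l2/AXBP1 was lost in 10 of 19 alternatives, with adjusted p from 0.000208 to 0.263. That of Rplp1 was lost in 3 of 19, with adjusted p from 5.61e-07 to 0.117.

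Rpl12 measured 9803 and 11283 normalized counts for WT, 8678 and 8101 for ACreb3l2, 9488 and 9599 for AXBP1 and 8394 and 7468 for ACreb3l2/AXBP1. As for Rplp1, both AXBP1 libraries lay between those of WT and those of the other groups. Rpl12 fell by 24.8% in ACreb3l2/AXBP1 (log2 change -0.41, SE 0.0982, edgeR adjusted p = 0.0304), a call lost in 7 of 19 alternatives (adjusted p from 0.00099 to 0.210). Rplp2, the partner of Rplp1, had 9435 and 10255 normalized counts in WT and 9227 and 8350 in ACreb3l2/AXBP1. Its change there was -0.16 (edgeR adjusted p = 0.241), and it was not called in any comparison or alternative with WT. As a share of the normalized counts of the 75 genes, the stalk genes Rplp0, Rplp1 and Rplp2 together held 6.74% and 6.94% for WT, 6.07% and 5.97% for ACreb3l2, 6.53% and 6.18% for AXBP1 and 5.96% and 5.30% for ACreb3l2/AXBP1. This share does not depend on the scaling between libraries, and every transgenic library lay below both WT libraries. It is drawn from the same counts of Rplp0 and Rplp1 as above and is a description, not separate evidence.

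Rpl29, a small 60S protein without which mice are viable but small, was the gene with the largest fall. It measured 1623 and 1361 normalized counts for WT, 1268 and 838 for ACreb3l2, 1426 and 1333 for AXBP1 and 783 and 792 for ACreb3l2/AXBP1. The ACreb3l2/AXBP1 libraries lay below all others, the ACreb3l2 libraries differed by more than those of any other group, and AXBP1 overlapped WT. Rpl29 fell by 47.2% in ACreb3l2/AXBP1 (log2 change -0.92, SE 0.176, edgeR adjusted p = 0.0169), a call lost in 3 of 19 alternatives (adjusted p from 1.69e-12 to 0.132). On the scale of FPKM it went from 71.7 and 57.8 in WT to 32.1 and 36.9 in ACreb3l2/AXBP1. The called genes lie at chr9:106429454-106431568 (Rpl29, plus strand), chr5:115559467-115563727 (Rplp0, plus strand), chr9:61913284-61914542 (Rplp1, minus strand) and chr2:32961559-32965345 (Rpl12, plus strand) in mm10, and all are protein-coding. No annotated exon of another gene overlaps those of Rpl29, Rplp0 or Rplp1, while 3.61% of the exonic bases of Rpl12 are shared on the same strand and 1.56% on the other.

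**Figure D4:**
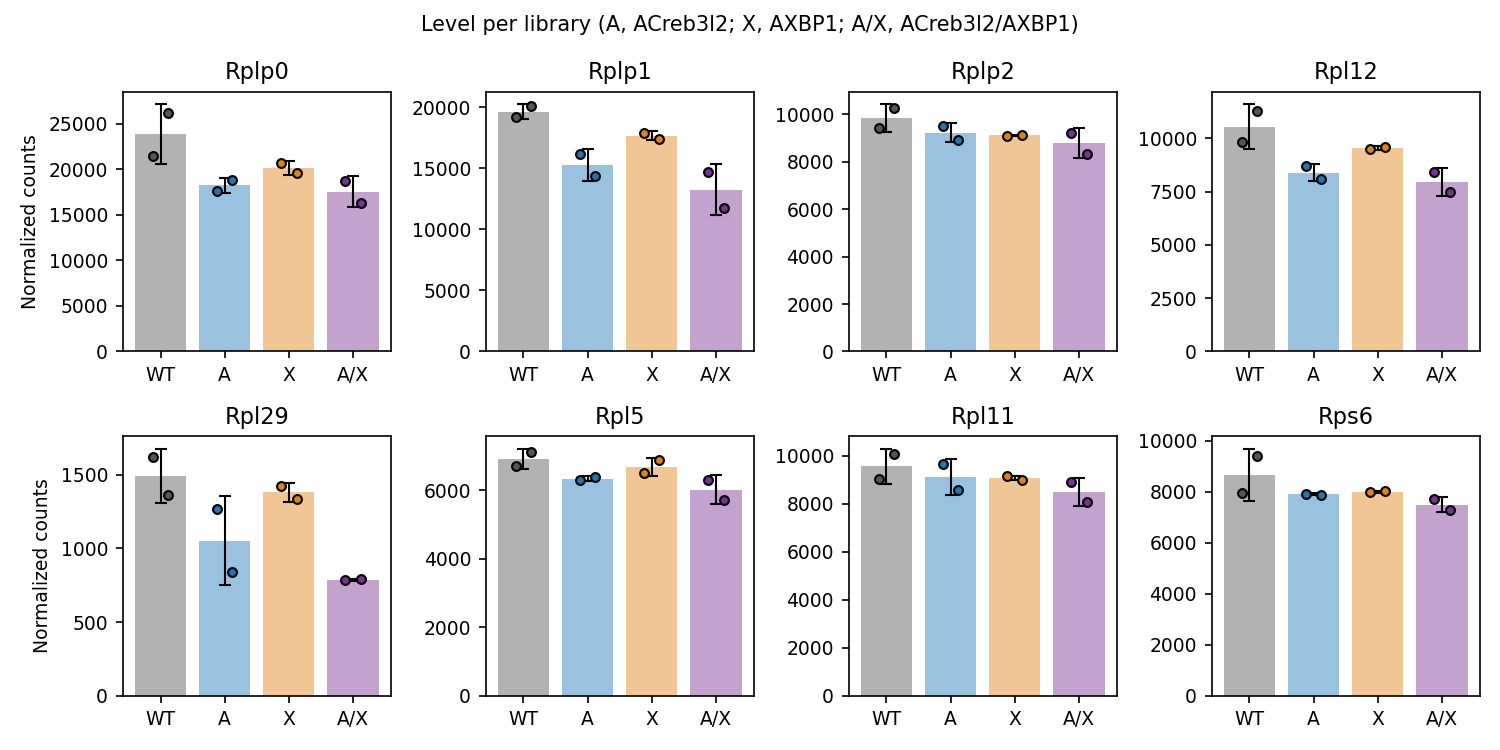
Normalized counts (vertical axes, from 0) of 8 ribosomal protein genes by group, with points for libraries, bars for the mean and error bars for the SD of 2 libraries. Rplp0, Rplp1, Rpl12 and Rpl29 are lowest in ACreb3l2/AXBP1, and Rplp2, Rpl5, Rpl11 and Rps6 differ less between groups.

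In ACreb3l2 against WT no gene was called by edgeR (3.04% of all genes were), 7 had an unadjusted p under 0.05, all lower (9.99% of all genes), and DESeq2 called Rpl12, Rpl38, Rplp0 and Rplp1 (5.15% of all genes called). The lowest changes were those of Rpl29 (-0.50, edgeR adjusted p = 0.189), Rplp0 and Rplp1. Rpl38, a small 60S protein known for its role in translation of Hox mRNAs, had 4507 and 4934 normalized counts in WT and 3755 and 3785 in ACreb3l2, which did not overlap. Its change was -0.32 (SE 0.0842, edgeR adjusted p = 0.0770). The highest changes were those of Rpl26 (0.14), Rpl30 (0.07) and Rpl34 (0.03), with edgeR adjusted p of 0.673, 0.735 and 0.871.

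In AXBP1 against WT no ribosomal protein gene was called by edgeR (0.0% of all genes), DESeq2 (0.562%) or limma on log2(FPKM + 1) (0.0578%). An unadjusted p under 0.05 was found for 3, all lower (5.68% of all genes). The lowest was Rps18, a protein of the head of the 40S subunit, with 7600 and 8118 normalized counts in WT and 6338 and 6519 in AXBP1. Its libraries did not overlap, and the change was -0.29 (SE 0.0895, edgeR adjusted p = 0.474). Rplp0 followed (-0.24), then Rpl18 (-0.21, edgeR adjusted p = 0.50). The highest were Rpl26 (0.12), Rpl22 (0.11) and Rpl30 (0.08), with edgeR adjusted p of 0.772, 0.616 and 0.772.

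A few genes went against the rest in ACreb3l2/AXBP1, where 8 of 75 had a positive change. Rpl26, which lines the rim of the exit tunnel for the new protein chain, had 9142 and 11719 normalized counts in WT and 12610 and 11808 in ACreb3l2/AXBP1. Its WT libraries differed the most of all 75 genes, by 0.36 on the log2 scale, and the change was 0.23 (SE 0.141, edgeR adjusted p = 0.307). Rpl30, a 60S protein, had 5696 and 5902 normalized counts in WT and 6618 and 6853 in ACreb3l2/AXBP1, a change of 0.22 (SE 0.0928, edgeR adjusted p = 0.154). The groups did not overlap for Rpl30, and it was the one called higher with library size alone. Rpl35a, mutated in some patients with Diamond-Blackfan anaemia, was at 0.12 (edgeR adjusted p = 0.382).

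None of the following genes was called. Rpl5 and Rpl11, which form a particle with 5S ribosomal RNA and bind Mdm2 when ribosome assembly fails, had changes of -0.20 and -0.17 in ACreb3l2/AXBP1 (edgeR adjusted p = 0.146 and 0.256). Rpl5 had 6701 and 7124 normalized counts in WT and 6309 and 5708 in ACreb3l2/AXBP1, which did not overlap. Rps6, the 40S protein phosphorylated by S6 kinases, had 7930 and 9382 in WT and 7693 and 7275 in ACreb3l2/AXBP1, and its change was -0.21 (edgeR adjusted p = 0.168). Rps27a, made as a fusion with ubiquitin, was at -0.12, and Fau, made as a fusion with a ubiquitin-like protein, at -0.24 (edgeR adjusted p = 0.327 and 0.122). Of 8 genes at the rim of the exit tunnel 5 were lower (median -0.12), and of 17 genes mutated in Diamond-Blackfan anaemia 15 were lower (median -0.17), with none called in either. Of all genes 48.3% were lower and 10.1% were called in this comparison. The 3 genes at the mRNA entry and decoding sites, Rps2, Rps3 and Rps23, were all lower (median -0.16) and none was called.

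Between transgenic groups no ribosomal protein gene was called by edgeR. ACreb3l2 was compared with AXBP1 (0.719% of all genes called), with a median of -0.04 and 1 gene at an unadjusted p under 0.05 (9.49% of all genes), Rpl38. There 0 were called by DESeq2 (1.7% of all genes) or limma on log2(FPKM + 1) (0.193%). ACreb3l2/AXBP1 against ACreb3l2 (0.0% of all genes called) gave a median of -0.02 and 1 gene at an unadjusted p under 0.05 (7.14% of all genes), Rpl29. Again 0 were called by DESeq2 (0.335% of all genes) or limma on log2(FPKM + 1) (0.0%). ACreb3l2/AXBP1 against AXBP1 (0.623% of all genes called) gave a median of -0.06 and 3 genes at an unadjusted p under 0.05 (11.1% of all genes), Rpl29 (-0.81), Rplp1 (-0.42) and Rpl12 (-0.27), with edgeR adjusted p of 0.106, 0.195 and 0.347. DESeq2 called the first and second of these (1.96% of all genes called). On FPKM the medians against AXBP1 changed sign, to 0.15 for ACreb3l2 and 0.09 for ACreb3l2/AXBP1. With library size alone the median of ACreb3l2/AXBP1 was 0.04 against AXBP1 and 0.06 against ACreb3l2. Medians of all genes moved on these scales as well, as given above for the comparisons with WT. The interaction asks whether the double group differs from the sum of the single ones. It gave 0 calls by edgeR (0.0% of all genes), DESeq2 (0.0257%) and limma on log2(FPKM + 1) (0.0%). Its median was 0.06, with 1 gene at an unadjusted p under 0.05 (2.48% of all genes), Rpl39 at 0.40.

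ACreb3l2 against WT and ACreb3l2/AXBP1 against AXBP1 share no library and both add ACreb3l2. Over the 75 genes their log2 changes had a Pearson r of 0.73 and a Spearman rho of 0.54, and 57 genes were lower in both. Over all 15580 genes r and rho were 0.45 and 0.54, and 5365 were lower in both. AXBP1 against WT and ACreb3l2/AXBP1 against ACreb3l2, which both add AXBP1, gave 0.44 and 0.56 over the 75 genes and 0.27 and 0.44 over all genes, with 45 of the 75 and 5219 of all genes lower in both. The points are genes that share each library's depth and composition, and the values are a description. Leaving out Rpl29 changed the first r to 0.64.

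**Figure D5:**
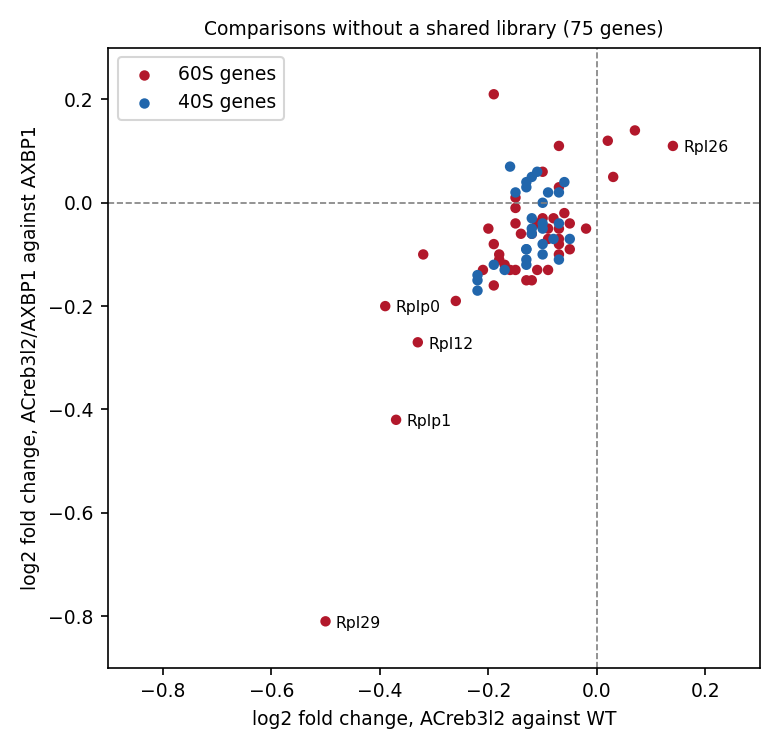
Log2 fold change of the 75 tested ribosomal protein genes in ACreb3l2 against WT (horizontal) and in ACreb3l2/AXBP1 against AXBP1 (vertical), which share no library (Pearson r 0.73). Rpl29, Rplp1, Rpl12 and Rplp0 lie at the low end of the plot.

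The changes were also set beside features that the choice of genes did not use. Among them was whether the study's binding data list a Creb3l2 peak at the gene. That binding was measured in AtT-20 cells, a tumour-derived line made to express tagged, cleaved Creb3l2, and not in the lobe. The 60 tested genes with a peak had medians of -0.12, -0.08 and -0.15 in the order ACreb3l2, AXBP1 and ACreb3l2/AXBP1, and the 13 without had -0.12, -0.09 and -0.16. A further 2 tested genes are not in the study's list. All 4 called genes were among the 60, which hold most of the tested genes. Genes with a pyrimidine run at the start (27) and without (28) had medians of -0.16 and -0.16 in ACreb3l2/AXBP1, and genes with ACGT in the window (32) and without (23) had -0.13 and -0.17.

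Of 66 factors that assemble ribosomes 57 had a negative change in ACreb3l2 (median -0.14, 4 called, all lower, beside 2.50% of all genes), 60 in AXBP1 (median -0.19, none called) and 59 in ACreb3l2/AXBP1 (median -0.27). In the last 21 were called, all lower, beside the 6.99% of all genes called lower. As given above, far fewer of all genes were called there without WT replicate 2 or without ACreb3l2/AXBP1 replicate 2. Tsr1, an assembly factor of the 40S subunit, measured 3676 and 3888 normalized counts for WT, 2141 and 2322 for ACreb3l2, 3219 and 3154 for AXBP1 and 2147 and 1799 for ACreb3l2/AXBP1. AXBP1 lay between WT and the other groups without overlap. Its change from WT was -0.76 for ACreb3l2 (SE 0.0973, edgeR adjusted p = 0.00334) and -0.94 for ACreb3l2/AXBP1 (SE 0.0976, edgeR adjusted p = 0.00114), and both calls held in every alternative run. Against AXBP1 it was lower in ACreb3l2 (-0.51, edgeR adjusted p = 0.0491) and in the double group (-0.69, edgeR adjusted p = 0.0151), calls that were lost in 11 and 5 of 18 alternatives.

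Gnl3, the nucleolar GTPase nucleostemin, fell by 0.59 on the log2 scale in ACreb3l2 and by 0.73 in ACreb3l2/AXBP1 (edgeR adjusted p = 0.00876 and 0.00253). Urb2 and Bysl, further assembly factors, fell in both groups, by 0.55 and 0.61 in ACreb3l2 (edgeR adjusted p = 0.0347 and 0.0402), where each call was lost in 10 of 18 alternatives. In ACreb3l2/AXBP1 the calls of Rrp12, also an assembly factor, Bysl and Urb2 were lost in 8, 2 and 1 of 19 alternatives. That of Gnl3 there was lost in none. The next 3 lists are read against the 10.1% of all genes called in ACreb3l2/AXBP1. Of 15 genes of RNA polymerase I and its factors 2 were called there, Polr1e (-0.48) and Cd3eap (-0.46), lost in 12 and 5 of 19 alternatives, and the median was -0.08. Of 16 genes in a list of the mTOR pathway and of Myc network transcription factors 3 were called there. They were Eif4ebp1 of the mTOR pathway, which represses cap-dependent translation, at -2.43, and the Myc network factors Max at -0.39 and Mycn at 0.92, lost in 1, 7 and 6 of 19 alternatives. Eif4ebp1 was at -1.83 in ACreb3l2 and -1.81 in AXBP1 (edgeR adjusted p = 0.0743 and 0.474), and its WT libraries were at 308 and 675 normalized counts. Of 14 assembly chaperones and ribosome-bound factors Bccip was called (-0.46), a call lost in 6 of 19 alternatives.

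Of 20 other genes with TOP mRNAs 15 had a negative change in ACreb3l2 (median -0.17), 13 in AXBP1 (-0.05) and 15 in ACreb3l2/AXBP1 (-0.14), where 48.2%, 49.7% and 48.3% of all genes were lower. Eef1b2, the exchange factor of the elongation factor eEF1A, measured 10600 and 11194 normalized counts for WT, 8104 and 8053 for ACreb3l2, 9989 and 10619 for AXBP1 and 8551 and 7864 for ACreb3l2/AXBP1. It was the only one called, at -0.43 for ACreb3l2 and -0.41 for the double group (edgeR adjusted p = 0.0244 and 0.0179), calls lost in 9 of 18 and 4 of 19 alternatives. A count of 1 in 20 is read against 3.04% of all genes called in ACreb3l2 and 10.1% in ACreb3l2/AXBP1.

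Paralogues of ribosomal proteins could be tested for 10 of 14 symbols, of which 1 was called in ACreb3l2 and 2 in ACreb3l2/AXBP1, beside 3.04% and 10.1% of all genes. Rpl36al, the retrocopy of Rpl36a, measured 2578 and 2742 normalized counts for WT, 2056 and 2113 for ACreb3l2, 2171 and 2170 for AXBP1 and 1961 and 1811 for ACreb3l2/AXBP1. It was called lower for ACreb3l2 and for the double group, at -0.35 and -0.50 (edgeR adjusted p = 0.0461 and 0.00687), calls lost in 12 of 18 and 1 of 19 alternatives. Rps4l, related to Rps4x, was called in ACreb3l2/AXBP1 (-0.67, edgeR adjusted p = 0.0462), a call lost in 10 of 19 alternatives. Rpl7l1, Rpl22l1, Rps27l, Rps27rt, Rps3a1, Rps3a2, Rps3a3 and Rsl24d1 were not called against WT, with log2 changes in ACreb3l2/AXBP1 of -0.06, -0.03, -0.25, 0.38, -0.12, -0.36, 0.87 and -0.06. Reads of near-identical copies may be split between them, and Rps3a3 ranged from 123 to 2024 normalized counts over the libraries.

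Pseudogenes named after these genes held between 0.714% and 0.955% as many counts as the genes themselves. Of 271 listed 38 were tested, of which 2 were called in ACreb3l2 and 1 in ACreb3l2/AXBP1, again beside 3.04% and 10.1% of all genes. Rpl34-ps1 measured 113 and 191 normalized counts for WT, 6.01 and 9.13 for ACreb3l2, 38.5 and 96.9 for AXBP1 and 5.93 and 4.43 for ACreb3l2/AXBP1, and it was called lower for ACreb3l2 and for the double group, at -4.33 and -4.84 (edgeR adjusted p = 0.00375 and 0.00246). Its parent Rpl34 ran only from 4551 to 4818 normalized counts over all 8 libraries. Rps26-ps1 measured 556 and 400 for WT, 12 and 6.84 for ACreb3l2, 340 and 272 for AXBP1 and 176 and 457 for ACreb3l2/AXBP1, and it was called in ACreb3l2 (-5.60, edgeR adjusted p = 0.00802). Its parent Rps26 had 6096 and 7618 in WT and 6223 and 5948 in ACreb3l2. Adding each gene's pseudogenes to its counts left the same 4 genes called in ACreb3l2/AXBP1.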

How the data were processed

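RNA-seq of 8 pooled lobes was analysed from 2 deposited tables. The authors used Trimmomatic for trimming, Tophat for alignment (mm10) and HTSeq for counting, and deposited raw counts per Ensembl gene. The authors also deposited FPKM values; a software list names STAR and cufflinks. The annotation release and strand setting are not given in the sources used here, and the labels (ribosomal depletion) and methods text (mRNA kit) differ on selection. Counts were fitted with edgeR 4.0.16 (R 4.3.3; TMM, robust quasi-likelihood, all 8 libraries, group means, Benjamini-Hochberg adjustment) for 15580 genes with a mean normalized count above 20. The common biological coefficient of variation was 0.107. Alternatives used DESeq2 1.42.0, limma 3.58.1 on log2(FPKM + 1) and log2(FPKM + 0.1), other scalings and left-out libraries. Library scores are medians of log2 CPM (prior count 2). Coordinates are GENCODE M21 on mm10. The tests were run first on simulated data. P-values measure only the spread between pools. The genes, lists and tests were chosen with earlier results of these data known. Genes named are those called, the 3 highest and lowest changes against WT, the stalk, 5S particle, Rps27a, Fau, Rps6, the extremes of FPKM and the short list Rps2, Rps3 and Rps23; Rpl38, Rpl39, Rpl10a, Rpl41 and Rps19 were added after their values were seen where a count named them, as were Rpl24 (lost to the filter), Rps26 (parent of a called pseudogene) and Rps24 and Rps4x (opposite sides of WT). Replicate numbers of the labels did not pair the libraries (correlations of deviations from -0.197 to 0.0887). An item that is withheld is not reported here.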

Additional observations from a re-analysis of the deposited data

Results flagged for a closer look

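Groups of 2 libraries are too small for a test of a library that stands apart. A few ribosomal protein genes lay on opposite sides of WT in different groups. The share of all tested genes that did so is not given, so these are examples only. Rpl22, a 60S protein near the exit tunnel, was below both WT libraries in both ACreb3l2 libraries (log2 change -0.05) and above them in both AXBP1 libraries (0.11). The direct comparison of these groups gave -0.16 (edgeR adjusted p = 0.588). Rps24 (-0.05 in ACreb3l2 and 0.04 in AXBP1) and Rps4x (-0.07 and 0.06) did the same, with edgeR adjusted p of 0.785 and 0.717 for the difference, and both ACreb3l2/AXBP1 libraries were also below WT for Rps4x (-0.05, edgeR adjusted p = 0.651 against AXBP1). Rpl34 went the other way, at -0.03 in AXBP1 against 0.03 in ACreb3l2 and 0.02 in ACreb3l2/AXBP1 (edgeR adjusted p = 0.901 and 0.842 for the differences). None of these differences passed the test. On FPKM both AXBP1 libraries lay below both WT libraries for Rpl22 (325 and 347 against 383 and 365) and for Rps4x (516 and 557 against 585 and 563), so that these genes changed direction. AXBP1 overlapped WT for Rps24 on that scale. The median log2 change of all genes in AXBP1 against WT was also negative on log2(FPKM + 1), as given above.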

How the results depend on the processing

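Ribosomal protein genes called against WT numbered 5 in ACreb3l2 and 8 in ACreb3l2/AXBP1 with no filter on low counts (4.92% and 10.9% of all genes), and 4 and 7 with DESeq2 (5.15% and 14.1%). In ACreb3l2/AXBP1 against AXBP1 they numbered 2 and 2 (2.56% and 1.96%), and 1 was called against ACreb3l2 with no filter (1.74%). With only the groups compared, 1 was called in ACreb3l2/AXBP1 against WT (4.2%) and 1 against AXBP1 (0.783%). Replicate numbers did not pair the libraries, and the replicate block left 2 calls in ACreb3l2/AXBP1 against WT (7.14%). A crossed pairing of WT and ACreb3l2/AXBP1, chosen after seeing the data, gave 11 (19.6%).

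With library size alone the medians against WT were -0.04, -0.02 and 0.01 for ACreb3l2, AXBP1 and ACreb3l2/AXBP1, and ACreb3l2/AXBP1 was at 0.04 against AXBP1 and 0.06 against ACreb3l2. On FPKM, at either pseudocount, the medians were -0.24 in AXBP1 against WT, 0.15 in ACreb3l2 against AXBP1, 0.09 in ACreb3l2/AXBP1 against AXBP1 and 0.19 for the interaction. The length offset gave -0.08 in ACreb3l2/AXBP1 against WT. The share of FPKM held by these genes was 5.00% ± 0.00844 for WT and 4.72% ± 0.205 for ACreb3l2 (SD, n = 2 each). It was 5.12% ± 0.415 for AXBP1 and 5.50% ± 0.339 for ACreb3l2/AXBP1. Both ACreb3l2/AXBP1 libraries lay above both WT libraries, both ACreb3l2 libraries below, and AXBP1 on either side. In the same order the share was 2.81%, 2.64%, 2.73% and 2.68% of counts without Pomc and the 10 genes with most counts.

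When single libraries were left out, the calls in ACreb3l2/AXBP1 against WT moved as given above beside the shares of all genes. Medians against WT spanned -0.18 to -0.06 for ACreb3l2, -0.15 to -0.02 for AXBP1 and -0.22 to -0.07 for ACreb3l2/AXBP1. They ran from -0.06 to -0.03 in ACreb3l2 against AXBP1, -0.09 to -0.03 in ACreb3l2/AXBP1 against AXBP1, -0.06 to 0.01 against ACreb3l2, and -0.03 to 0.13 for the interaction.

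Among the values followed for named genes 23 changed sign, none of them called. Other genes and comparisons are not in this count. With library size alone Rpl11 was at 0.01 in ACreb3l2, Rpl5 at 0.01 in AXBP1, and Rps27a at 0.04 in AXBP1 and 0.04 in ACreb3l2/AXBP1. On FPKM at either pseudocount, AXBP1 values were -0.15 for Rpl22, -0.04 for Rpl26 and -0.11 for Rpl30. On log2(FPKM + 1) the median of all genes in AXBP1 was negative as well. Rps27a was at 0.02 in AXBP1 with the length offset, and Rpl34 at -0.01 in ACreb3l2 with pseudogenes added. With 1 library left out, ACreb3l2 values spanned -0.15 to 0.02 for Rpl11, -0.03 to 0.33 for Rpl26 and -0.05 to 0.19 for Rpl30. AXBP1 values then spanned -0.15 to 0.00 for Rpl11, -0.05 to 0.31 for Rpl26, -0.24 to 0.02 for Rpl29, -0.07 to 0.03 for Rps27a and -0.23 to 0.01 for Rps6. The causes were not tested. With 2 pools a group, small changes could not be resolved.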
